A study of Mus musculus with 8 samples.

Results

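The genes described here are 3 peptide precursors and 4 receptors of feeding circuits in the hypothalamus: Hcrt, Npy and Gal, with Hcrtr1, Hcrtr2, Npy1r and Npy5r. A gene was taken from probes whose platform annotation gives exactly 1 gene symbol. These were 7 of 13840 genes with such a probe, and each had 1 of them, so no second single-symbol probe could be set beside it. Probes with several symbols or none were not counted. Male mice of 2 strains were studied. C57BL/6J, called B6 here, is the common inbred strain. B6.CAST-17, called congenic here, is homozygous for a stretch of chromosome 17 from the CAST strain and otherwise B6. Hypothalamus and liver were taken on chow (LabDiet 5001) or after 24 h with 2 diets to choose from, called 2-choice here. Of these, the first was carbohydrate with protein and the second fat with protein, with 78% of the carbohydrate or fat and 22% protein. Each of the 8 arrays held 1 pool of RNA from 6 mice, so no group had a second pool. Before that, a screen over 10 days of 20 to 25 mice per strain had kept those most extreme in what they ate, so the pools do not sample a strain at random. Those mice spent 6 weeks back on chow before the choice, and tissue was taken 4 h before lights out. The collection time of the chow mice was not established here.

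Orexins are a pair of peptides cut from the Hcrt precursor, made by neurons of the lateral hypothalamus, and are known for arousal and food seeking. They act on the G-protein-coupled receptors encoded by Hcrtr1 and Hcrtr2. Neuropeptide Y, encoded by Npy, is made in the arcuate nucleus by neurons that also make agouti-related peptide, and drives feeding largely through the receptors of Npy1r and Npy5r. Galanin, encoded by Gal, is made in several hypothalamic nuclei and has been linked to fat intake. In pooled tissue, fewer cells of a type and less RNA per cell cannot be told apart.

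The 3 precursor genes carried the signal that stood far above liver, and the 250 bases before their annotated starts are shown as the annotated promoters of those genes. The arrays do not tell which start was used. The windows are RefSeq's, on build GRCm38.p6, read 5′ to 3′ on the gene's strand. Capitals mark ATAAA, the core of a TATA-like element, and GGGCGG, a GC box. Hcrt is on the minus strand, chr11:100762932-100763181, Npy on the plus strand, chr6:49822460-49822709, and Gal on the minus strand, chr19:3414545-3414794.
Hcrt: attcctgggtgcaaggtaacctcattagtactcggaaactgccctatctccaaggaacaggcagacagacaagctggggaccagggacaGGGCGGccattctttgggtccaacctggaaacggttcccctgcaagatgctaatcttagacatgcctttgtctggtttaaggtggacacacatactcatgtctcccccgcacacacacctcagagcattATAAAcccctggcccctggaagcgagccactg
Npy: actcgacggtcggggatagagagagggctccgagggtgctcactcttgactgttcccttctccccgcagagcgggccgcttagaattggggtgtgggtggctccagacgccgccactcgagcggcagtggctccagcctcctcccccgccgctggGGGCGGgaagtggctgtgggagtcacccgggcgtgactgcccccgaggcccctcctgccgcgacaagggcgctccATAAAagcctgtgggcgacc
Gal: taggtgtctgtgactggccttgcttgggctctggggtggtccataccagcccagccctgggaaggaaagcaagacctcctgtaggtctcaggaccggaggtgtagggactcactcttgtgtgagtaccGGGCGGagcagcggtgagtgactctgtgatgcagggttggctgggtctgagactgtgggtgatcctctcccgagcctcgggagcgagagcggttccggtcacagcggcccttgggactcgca

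ATAAA began 32 bases before the start of Hcrt and 20 bases before that of Npy, and was not in the Gal window. Among all 32851 RefSeq windows of this length, 5.5% held ATAAA on the gene strand within the last 40 bases, and 37.3% held it somewhere on either strand. GGGCGG lay 161, 95 and 122 bases before the starts of Hcrt, Npy and Gal, against 32.7% of all windows on either strand. The G+C share was 53.6% for Hcrt, 69.2% for Npy and 62.4% for Gal, with a median of 52.4% over all windows. None of the 3 windows held TGACG, the core of a cAMP response element (17.8% of all windows), GTAAACA, a forkhead motif (3.17%), or CACGTG, an E-box (6.02%), on either strand. The windows of the 4 receptors held no GGGCGG. Among the receptors, the Npy5r window alone held CACGTG, beginning 40 bases before its start. Npy5r and Npy1r lie on chromosome 8 on opposite strands, with starts 9.33 kb apart. These matches describe letters in a window and not binding.

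Levels below are log2 intensity after quantile normalization over the 4 arrays of a tissue, and differences are on that log2 scale. A probe was tested for diet and strain where its mean level over the 4 hypothalamus arrays was at least 9.26, the 40th percentile. That held for 6 of the 7 genes, and Hcrtr2, at a mean of 9.07, fell under it. Detection flags were not used here, so a level near 9 is near the dim end of the array and has no formal limit of detection.

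Several facts of the arrays bear on every comparison. The authors' table gives the strains of each tissue and diet the same distribution of intensities, within 0.244%. The liver diets were close, with median intensities of 700 on chow and 702 on 2-choice and means of 16211 and 15175. The hypothalamus diets were not: the median was 560 in the chow pair and 1338 in the 2-choice pair, and the mean 4432 and 16622. A diet effect in hypothalamus and this scaling therefore cannot be told apart. The hypothalamus strain pair on chow was also the less alike. Its arrays correlated at r = 0.895 over 33012 probes, against 0.96 in the 2-choice pair. That pair went against its strain labels at genes of chromosome 17. For Decr2, congenic minus B6 was -3.26 in the hypothalamus 2-choice pair, -2.63 in the liver chow pair and -2.32 in the liver 2-choice pair, but 1.38 in the hypothalamus chow pair. For Cyp4f14 it was -2.96, -1.79 and -1.53 in those 3 pairs, but 2.69 in the hypothalamus chow pair. The free-text description of the hypothalamus array labelled congenic chow names C57BL/6J. Groups follow the titles here, each hypothalamus chow array is to be read as the array labelled so, and strain results of the tested genes are given with and without that pair. Descriptions of the liver arrays also conflict with their titles, in tissue (hypothalamus) and, on chow, in diet (2-choice). The diet labels of the liver arrays enter the matched pairs and the error term, and the markers of tissue do not bear on them. With no pairing, Hcrt, Npy, Gal and Npy5r were still called by tissue. The tissue labels fitted their markers: 10 of 11 measured hypothalamic neuropeptide genes and 8 of 8 tested neuron genes were called higher in hypothalamus. In liver 7 of 7 hepatocyte genes were called higher. Of all probes tested, 21.2% were called higher in hypothalamus and 20.2% in liver.

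**Figure D1:**
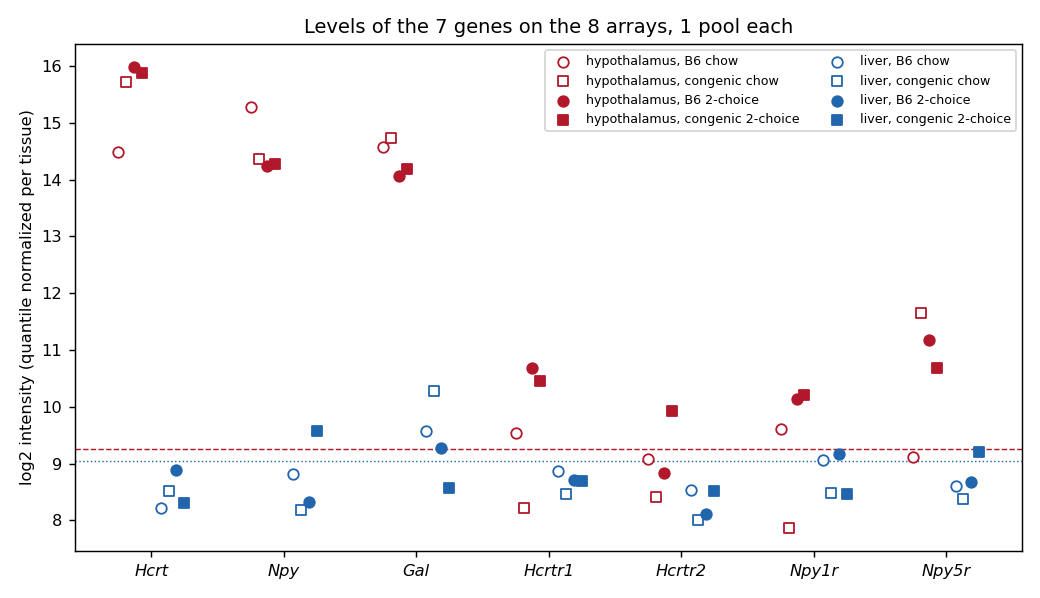
Log2 intensity of the 7 genes on each of the 8 arrays, quantile normalized per tissue, with 1 point per pool; no error bars, since no pool was repeated. Hcrt, Npy and Gal lie between 14.06 and 15.98 in hypothalamus and between 8.19 and 10.27 in liver, while the 4 receptor genes overlap between tissues.

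The comparison with liver asks how far each gene's signal in hypothalamus stood above its level in a tissue outside the brain. Hcrt, Npy and Gal were far higher in hypothalamus, and of the receptors only Npy5r was called. For Hcrt, the hypothalamus levels were 14.48 on B6 chow, 15.72 on congenic chow, 15.98 on B6 2-choice and 15.88 on congenic 2-choice. The liver levels, in the same order, were 8.22, 8.52, 8.89 and 8.30. All 4 hypothalamus arrays lay above all 4 liver arrays, and no liver array reached the liver's own 40th percentile of 9.04. With quantile normalization over all 8 arrays and the 4 matched pairs as blocks, the measured difference for Hcrt was 7.37 ± 0.31 on the log2 scale (SE, 4 pairs; limma, Benjamini-Hochberg adjusted p = 9.69e-09). Its liver signal has no order at this level, so liver values were raised to the liver's 40th percentile on the scale of all 8 arrays (9.14). On that scale Hcrt was at least 108-fold higher in hypothalamus. The bound holds for that scale and percentile only, since with median centring of each array the difference was 6.71 with no value raised, against 6.75 for the bound.

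Npy had hypothalamus levels of 15.27, 14.36, 14.24 and 14.27 and liver levels of 8.82, 8.19, 8.32 and 9.58 in the same order of groups. The tissues did not overlap, and the array highest in liver was the congenic 2-choice one. The measured difference was 5.97 ± 0.37 (SE, 4 pairs; limma adjusted p = 2.26e-07). With 3 of 4 liver arrays under that percentile, Npy was at least 44.5-fold higher on the scale of all 8 arrays. Gal was at 14.57, 14.73, 14.06 and 14.19 in hypothalamus and at 9.57, 10.27, 9.28 and 8.58 in liver. Again the tissues did not overlap, and 3 of 4 liver arrays were at or above the liver's 40th percentile, so liver gives a less empty floor for Gal. The measured difference was 5.05 ± 0.30 (SE, 4 pairs, limma adjusted p = 1.64e-07), and Gal was at least 30.2-fold higher by the same bound on that scale. With median centring of each array its difference was 4.69, against 4.92 for the bound. Of all 24156 probes tested, 41.4% were called either way and 21.2% were called higher in hypothalamus, and 20.5% had every hypothalamus array above every liver array.

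The receptor genes gave weaker contrasts. Npy5r was at 9.11, 11.65, 11.18 and 10.68 in hypothalamus and between 8.37 and 9.21 in liver. The B6 chow hypothalamus array lay inside the liver range and the other 3 above it. The tissue difference was 1.74 ± 0.55 (SE, 4 pairs; limma adjusted p = 0.0258), and it missed the threshold without the congenic chow pair (1.36, limma adjusted p = 0.105) or without the B6 2-choice pair (1.47, limma adjusted p = 0.113).

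Hcrtr1 was at 9.54, 8.22, 10.68 and 10.45 in hypothalamus and 8.47 to 8.87 in liver. Only the congenic chow array was below the liver range. Its tissue difference was 0.86 ± 0.49 (SE, 4 pairs; limma adjusted p = 0.192). Npy1r was at 9.61, 7.87, 10.14 and 10.20 in hypothalamus and 8.47 to 9.17 in liver. The pattern matched that of Hcrtr1 in that the congenic chow array alone fell below liver, and its tissue difference was 0.46 ± 0.48 (SE, 4 pairs; limma adjusted p = 0.476). Hcrtr2 was at 9.09, 8.42, 8.84 and 9.93 in hypothalamus and at 8.54 or lower on the 4 liver arrays. It was higher in hypothalamus in 4 of 4 matched pairs, but the ranges overlapped, and with no level filter the difference was 0.67 ± 0.38 (SE, 4 pairs; limma adjusted p = 0.236).

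**Figure D2:**
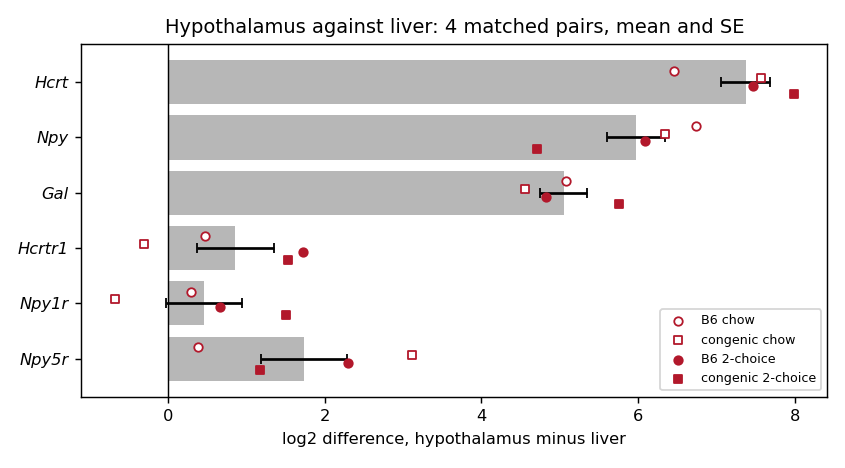
Difference between hypothalamus and liver in each of the 4 matched strain and diet pairs, log2 scale after quantile normalization over all 8 arrays, for the 6 genes tested; points are pairs, bars the fitted means and error bars their SE. Hcrt, Npy and Gal are high in 4 of 4 pairs, and Hcrtr1 and Npy1r are lower in hypothalamus in the congenic chow pair.

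The diet comparison asks whether 1 day of choosing between a carbohydrate and a fat diet altered expression. None of the 6 genes tested was called, against 0.49% of the 19807 probes tested. Among the peptides, Hcrt had the larger positive difference, while Npy and Gal had negative ones. The 3 receptor genes tested had positive mean differences with wide errors. A gene whose diets do not overlap has the same diet sign in both strains, which 63.2% of tested probes had. The share of probes without overlap was not counted, so the array orders given below do not by themselves show a diet response.

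Hcrt was lowest on the B6 chow array (14.48), and the other 3 lay within 15.72 to 15.98. The 2-choice array was higher than chow by 1.49 in B6 and by 0.16 in the congenic strain. Both 2-choice arrays lay above both chow arrays, but the gap between congenic chow and the 2-choice arrays was small. The mean was 0.83 ± 0.42 (SE; limma adjusted p = 0.302, unadjusted p = 0.0836). On the 4 hypothalamus arrays alone, with 1 residual degree of freedom, the same mean had an SE of 0.22 and was called (limma adjusted p = 0.0184). Npy and Gal had the same SE of 0.22 in that fit. It was thus set by the variance trend over probes and does not carry the gap between 1.49 and 0.16 for Hcrt.

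Npy ran the other way: B6 chow was the highest array (15.27), and the other 3 lay within 14.24 to 14.36. Diet differences were -1.02 in B6 and -0.09 in the congenic strain. The chow arrays both lay above the 2-choice arrays, again with a small gap from congenic chow. The mean was -0.56 ± 0.52 (SE; limma adjusted p = 0.567).

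Gal gave the most even pair of diet differences of the 7 genes, -0.51 in B6 and -0.54 in the congenic strain. Both chow arrays (14.57 and 14.73) lay above both 2-choice arrays (14.06 and 14.19). The mean was -0.53 ± 0.41 (SE; limma adjusted p = 0.493). Among bright probes, those with a mean level of 13 or more, 71.2% had the same diet sign in both strains, as Gal did. A difference of at least 1.5-fold in each strain with the same sign was found for 9.89%, and Gal, just under that fold in both, was not among them. Probes within 0.25 of Gal's level had a median absolute diet difference of 0.39 in B6 and 0.30 in the congenic strain.

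Hcrtr1 was higher with 2-choice by 1.14 in B6 and by 2.23 in the congenic strain. Both 2-choice arrays lay above both chow arrays, and the congenic chow array was the lowest. The mean was 1.68 ± 0.63 (SE; limma adjusted p = 0.184, unadjusted p = 0.0273). A difference of at least 1.5-fold in the same direction in both strains was found for 21.9% of tested probes. The chow mean of Hcrtr1 (8.88) was under the filter level of 9.26 and its 2-choice mean (10.56) above it, so it entered the test through the 2-choice arrays. With no level filter its limma adjusted p was 0.236.

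Npy1r differed by 0.52 in B6 and 2.33 in the congenic strain, with a mean of 1.43 ± 0.67 (SE; limma adjusted p = 0.269). Its 2-choice arrays were close to each other and above both chow arrays, and the congenic chow array was again the lowest. It too passed the filter through the 2-choice arrays (means of 8.74 on chow and 10.17 on 2-choice), and dropped under it without either of them. With no level filter its limma adjusted p was 0.327. Npy5r gave opposite signs, 2.07 in B6 and -0.96 in the congenic strain, with a mean of 0.55 ± 0.81 (SE; limma adjusted p = 0.731) that turned to -1.02 without the B6 chow array and -0.91 without the B6 2-choice array. Its B6 chow array was the lowest and its congenic chow array the highest, with both 2-choice arrays between them. Hcrtr2 differed by -0.25 in B6 and 1.51 in the congenic strain, and with no level filter its mean was 0.63 ± 0.61 (SE; limma adjusted p = 0.646).

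Over all 7 genes, 4 differed by at least 1.5-fold with diet in B6 and 4 in the congenic strain, where 52.6% and 48.9% of all probes did. The median of the 7 was 0.52 in B6 and 0.16 in the congenic strain, against 0.00 and -0.01 over all probes. Which strain carries which diet difference depends on the labels of the chow pair, while the mean over strains does not.

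The signs for Npy and Gal depended on the scaling. On the deposited intensities without scaling, Npy was 1.61 and Gal 1.65 higher with 2-choice, while the median of all tested probes was 2.05 higher. With each array centred on its median, Npy was 0.35 and Gal 0.39 higher, while the median of tested probes was 0.79 higher. Relative to that median, Npy was at -0.44, Gal at -0.40, Hcrt at 0.87, Hcrtr1 at 0.90, Npy1r at 0.54 and Npy5r at 0.23. These values are the same under both settings by construction, since centring takes 1 value off all probes of an array. With quantile normalization per tissue, Npy was at -0.62 and Gal at -0.59 relative to the median of tested probes. With median centring Hcrt (1.66 ± 0.41 SE; limma adjusted p = 0.014) and Hcrtr1 (1.70 ± 0.56 SE; limma adjusted p = 0.0393) were called, in a fit that called 7633 probes. On the deposited intensities all 6 tested genes were called, in a fit that called 15430.

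**Figure D3:**
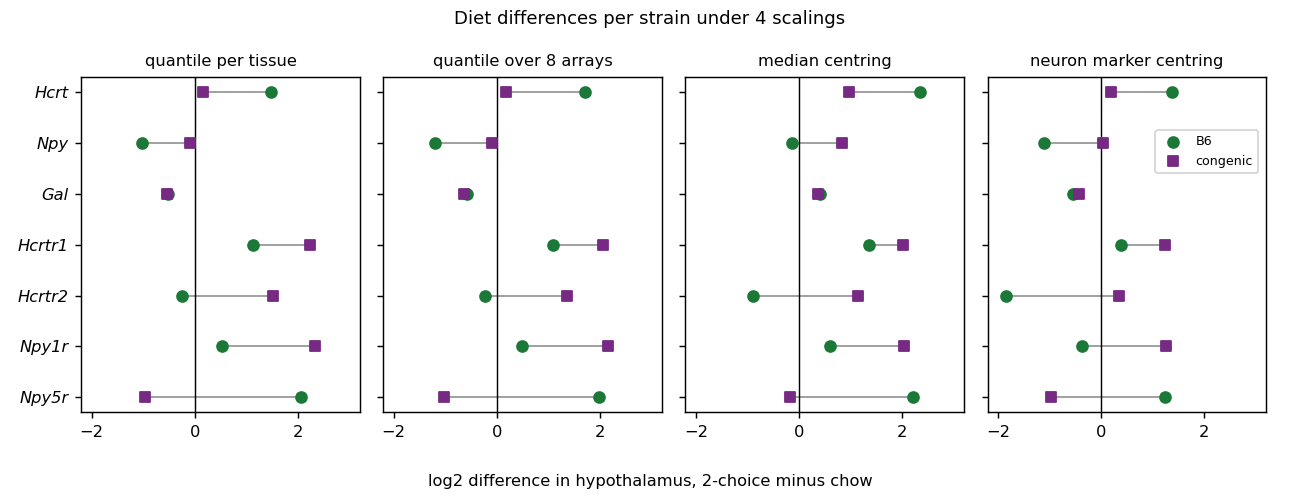
Diet difference (2-choice minus chow, log2) of the 7 genes in B6 (circles) and congenic (squares) hypothalamus under 4 scalings, 1 pair of arrays per point and no error bars. With quantile normalization per tissue, Hcrt lies at 1.49 and 0.16 and Npy at -1.02 and -0.09; median centring puts Gal above 0 in both strains and Npy above 0 in the congenic strain.

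Some lists of markers for other tissues and cell types differed between the chow and 2-choice arrays, and others differed little. Of 7 anterior pituitary genes 5 were measured, and Gh, growth hormone, was called higher with 2-choice (4.77 ± 0.76 SE; limma adjusted p = 0.0443). The summed quantile-normalized intensity of the 5 was 4352 and 3334 on the B6 and congenic chow arrays, and 39521 and 15614 on the 2-choice arrays. Lhb and Tshb, of the same list, had differences of -0.44 and 0.21. Of 7 oligodendrocyte genes 5 were measured and none was called, with sums of 119767 and 145504 on chow and 271278 and 212011 on 2-choice. Choroid plexus genes were measured for 5 of 5, with sums of 4893 and 4627 on chow and 8065 and 7746 on 2-choice. Ttr alone was called higher (2.56 ± 0.26 SE; limma adjusted p = 0.00806), at 10.03 and 8.81 on chow and 12.08 and 11.87 on 2-choice, while Kl differed by 0.02 in B6 and -1.22 in the congenic strain and Aqp1 by -0.16 and -1.46. Ttr is a liver gene too. Of 8 hepatocyte genes 7 were measured, with sums of 7909 and 4606 on chow and 8807 and 13243 on 2-choice, and beside Ttr the liver cytochrome Cyp2e1 was called higher (1.14 ± 0.16 SE; limma adjusted p = 0.0317). Alb was at 9.35 on the B6 and 11.42 on the congenic 2-choice array, and Apoa1 at 9.13 and 11.12. Thalamus genes, measured for 3 of 5, had sums of 5702 and 9760 on chow and 8415 and 11101 on 2-choice, which overlap. Cortex and hippocampus genes, measured for 3 of 5, had sums of 3930 and 4589 on chow and 4692 and 4684 on 2-choice. The part of these tissues in the diet differences was not tested. The hypothalamic neuropeptide list, measured for 11 of 12, did not follow diet in this way: its sums were 696934 and 806757 on chow and 555730 and 721531 on 2-choice, none of the 11 was called, and their median diet difference was 0.03. With each array centred on that list, Hcrt differed by 1.35 in B6 and 0.33 in the congenic strain. With each array centred on neuron genes, it differed by 1.39 and 0.19. These centrings were made on the deposited intensities in place of quantile normalization, so the normalization changed as well. Centring shifts every probe of an array by the same amount, which quantile normalization does not. On the deposited intensities the mean was 2.92 for Hcrt and 2.95 for Hcrtr1. Against the quantile-normalized means the receptor genes moved more, and the part of either step in this was not tested. The mean for Hcrtr1 went from 1.68 to 0.87 with neuropeptide centring and 0.82 with neuron centring, and that for Npy1r from 1.43 to 0.50 and 0.45. That for Npy5r went from 0.55 to 0.19 and 0.14. In B6, Npy1r turned from 0.52 to -0.40 and -0.36, and in the congenic strain Npy turned from -0.09 to 0.19 and 0.05. None of the 6 genes was called with either centring.

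The strain comparison asks what the donor segment of chromosome 17 altered, and none of the 7 genes lies on that chromosome. None of the 6 tested was called, and of all probes tested 0.0% were (limma, 983 of 19807 at an unadjusted p under 0.05). As labelled, Hcrtr1 and Gal had the same sign in the chow and 2-choice pairs and the other 5 of the 7 opposite signs, where 50.3% of all probes had the same sign. With the chow labels turned, those 5 would have the same sign and Hcrtr1 and Gal opposite signs, so the labels decide this count.

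Hcrt differed by 1.24 (congenic minus B6) on chow and by -0.10 on 2-choice, where the levels were 15.88 and 15.98. The mean was 0.57 ± 0.42 (SE, limma adjusted p = 0.825), and without the chow pair it was -0.09. Npy differed by -0.91 on chow and 0.02 on 2-choice, with a mean of -0.44 ± 0.52 (SE; limma adjusted p = 0.886). Both genes were nearly level between strains on 2-choice, and for both the B6 chow array alone stood away from the other 3. Among bright probes, 23.4% stood at least 1.5-fold from the median of the other 3 arrays on the B6 chow array, more than on congenic chow (16.5%), B6 2-choice (15.7%) or congenic 2-choice (9.03%).

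Gal was the steadiest of the 7 between strains, at 0.16 on chow and 0.13 on 2-choice, with a mean of 0.15 ± 0.41 (SE; limma adjusted p = 0.963). Its congenic array was above its B6 array in both pairs, though the mean was -0.06 with each array centred on the hypothalamic neuropeptide genes.

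Hcrtr1 was lower in the congenic array on both diets, with differences of -1.31 on chow and -0.22 on 2-choice. The mean was -0.77 ± 0.63 (SE, limma adjusted p = 0.841), and without the chow pair it was -0.28. Npy1r differed by -1.75 on chow and 0.06 on 2-choice (mean -0.84 ± 0.67 SE; limma adjusted p = 0.837). Npy5r differed by 2.53 on chow and -0.50 on 2-choice (mean 1.02 ± 0.81 SE; limma adjusted p = 0.837). Npy1r and Npy5r differed in opposite directions on chow, each with 1 array under the filter level of 9.26. These were congenic chow for Npy1r (7.87) and B6 chow for Npy5r (9.11). Probes within 0.25 of their levels had a median absolute chow strain difference of 1.01 for Npy1r and 1.24 for Npy5r. Hcrtr2 differed by -0.68 and 1.09, with a mean of 0.20 ± 0.61 with no level filter (SE; limma adjusted p = 0.972).

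At least a 1.5-fold strain difference was seen for 6 of the 7 genes in the chow pair, where 52.1% of all probes had one, and for 1 of 7 in the 2-choice pair, where 24.0% did. The size depended on brightness over all probes: in the chow pair 16.0% of bright probes and 63.5% of the dimmer tested probes differed that much, and in the 2-choice pair 2.03% and 18.8%. Hcrt and Npy were among the 16.0% of bright probes on chow, and Gal was not. Without the chow pair the hypothalamus holds 1 array per strain and the error of the fit comes from liver alone, so only differences are given. These were 0.02 for Npy, 0.13 for Gal, 0.09 for Npy1r and -0.59 for Npy5r.

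**Figure D4:**
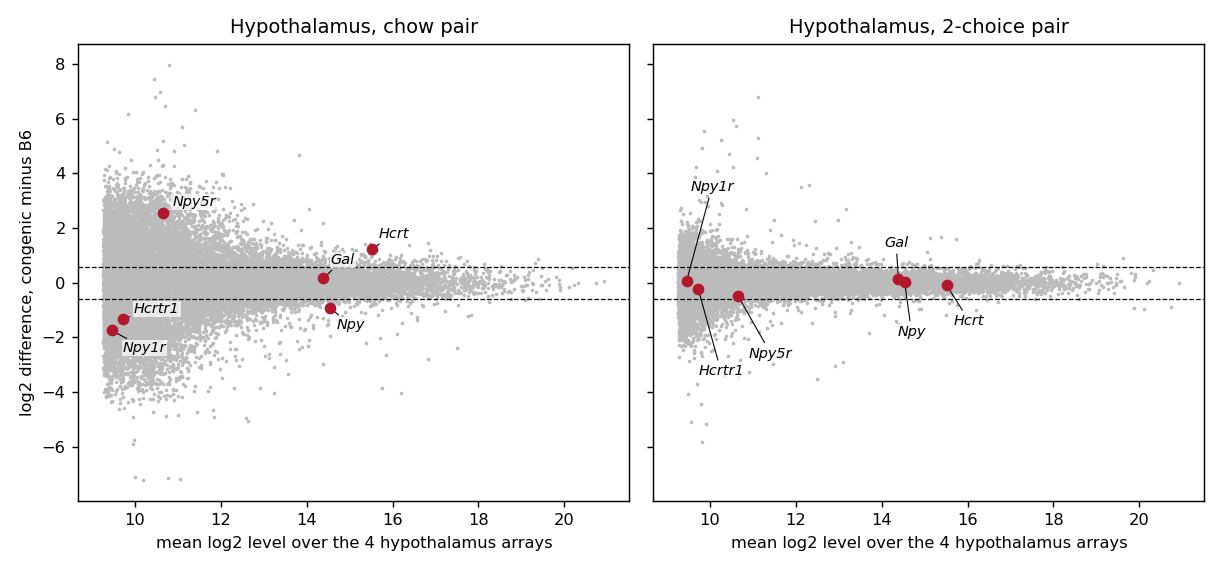
Strain difference (congenic minus B6, log2) against mean log2 level for all 19807 tested probes (grey) in the hypothalamus chow and 2-choice pairs, with the 6 tested genes in red and dashed lines at 1.5-fold. On chow Hcrt, Npy, Hcrtr1, Npy1r and Npy5r lie outside the lines, and on 2-choice all 6 lie inside.

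Other genes of the same circuits were read from 4 lists. Of 9 other orexigenic peptides 6 were measured and 4 tested, and none was called for diet or strain. Penk and Pdyn, opioid peptide precursors, were called higher in hypothalamus than in liver, by 8.15 ± 0.27 and 6.84 ± 0.37 (SE; limma adjusted p = 1.62e-09 and 6.26e-08). Their diet differences were -0.12 ± 0.34 and -0.52 ± 0.43 (SE). The median diet difference of the 4 tested was -0.32, against 0.07 over all probes tested. Agrp and Pmch, the precursors of agouti-related peptide and melanin-concentrating hormone, had no probe with a single symbol here.

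Of 12 further receptors for NPY, galanin, ghrelin and other orexigenic signals, 10 were measured and 6 tested, and none was called for diet or strain. The median diet difference was 0.09. For the tissue comparison 7 were tested, with 4 called higher in hypothalamus and 1 lower. Of all probes tested, 21.2% were called higher in hypothalamus and 20.2% lower. Npy2r, the presynaptic NPY receptor, was the clearest at 4.43 ± 0.42 (SE; limma adjusted p = 6.67e-06), and its diet difference was -0.42 ± 0.54 (SE). Galr2, a galanin receptor, was higher in hypothalamus by 1.53 ± 0.49 (SE; limma adjusted p = 0.0269).

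Genes that orexin neurons also express gave 6 measured of 7 and 3 tested. All 3 were called higher in hypothalamus, as were 21.2% of all probes tested, and none was called for diet or strain. Scg2, a granin of secretory vesicles, had a diet difference of 0.63 ± 0.35 (SE; limma adjusted p = 0.332), with 0.65 in B6 and 0.62 in the congenic strain. Slc17a6, the vesicular glutamate transporter of these neurons, was level at 0.04 ± 0.38 (SE; limma adjusted p = 0.964). Pdyn differed with diet by -0.14 and -0.91, so it did not share the diet signs of Hcrt (1.49 and 0.16). Between strains it differed by 0.92 on chow and 0.15 on 2-choice, where Hcrt differed by 1.24 and -0.10. Of 8 genes of the arcuate NPY neurons other than Npy, 7 were measured and 4 tested, and none was called for diet or strain. Gad1, a GABA synthesis enzyme, and Slc32a1, the vesicular GABA transporter, differed with diet by -0.24 ± 0.35 and -0.10 ± 0.26 (SE; limma adjusted p = 0.727 and 0.855).

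The genes nearest in pattern to each peptide were found by the root mean square difference of centred log2 levels over the 4 hypothalamus arrays, among 9874 other genes. For Hcrt these were Slc4a8 (0.0304), Ptpn7 (0.0346) and Tmem165 (0.0453), and 494 genes lay within 0.25. For Npy they were Sox4 (0.0167), Olfr116 (0.0211) and Bcas3 (0.0291), with 690 within 0.25. For Gal they were Hic1 (0.0116), Tnfsf14 (0.0160) and Mbd3 (0.0193), with 1774 within 0.25. For the receptors the count within 0.25 was smaller, 104 for Hcrtr1, 128 for Npy1r and 82 for Npy5r. With 4 arrays, a like pattern is common.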

How the data were processed

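RNA from 8 pools of 6 male mice was read on 8 single-channel Applied Biosystems chemiluminescent arrays, per the labels' protocols. The deposited values were linear intensity for 33012 probes. How the authors corrected background and normalized is not stated in any source used here. The deposited table was brought to a common distribution only within each tissue and diet. Gene symbols came from the platform annotation (14411 probes with 1 symbol).

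Intensities were taken to log2 with no offset and quantile normalized within each tissue's 4 arrays, or over all 8 for the tissue comparison; the deposited file itself holds no log2 values. With R 4.3.3 and limma 3.58.1 (eBayes using a variance trend, Benjamini-Hochberg over all probes tested, threshold 0.05), all 8 arrays were fitted with terms for tissue and, inside each tissue, for strain and diet (2 residual degrees of freedom), and for tissue with the 4 strain and diet pairs as blocks (3 residual degrees of freedom). No pool was repeated, so the error is made of interactions, liver's included, and p-values reflect nothing but how these pools differ. Where a hypothalamus array or pair was left out of the strain and diet fits, the error came from liver alone. The precision is limited by the number of arrays. Fits were tested on simulated data. The genes and lists were chosen with earlier results of these data known. The rule for named genes took the 7 members, the brightest members of the pathway lists and the 3 genes nearest in pattern to a member, with Decr2 and Cyp4f14 for the strain labels. Marker genes, Agrp, Pmch, Corin, Galr3 and Crh fall outside it, and those with values were chosen after their values were seen. Further choices of scaling, offset, filter, variance model and arrays were tried.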

Additional observations from a re-analysis of the deposited data

Results flagged for a closer look

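The differences below are on the log2 scale and come from the 6 genes that passed the level filter. Each was singled out because its sign in 1 diet or strain was opposite to that in the other, whatever its size. Hcrtr2, under the filter and so not listed, also had opposite signs by strain (-0.68 and 1.09) and by diet (-0.25 and 1.51). With 1 pool per group none of these differences was tested.

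For Hcrt the strain difference (congenic minus B6) was 1.24 on chow and -0.10 on 2-choice, a change of -1.33 between the pairs. For Npy it was -0.91 and 0.02, a change of 0.93. Npy1r went from -1.75 to 0.06, a change of 1.81. The 2-choice differences of Hcrt, Npy and Npy1r were small, so their opposite signs say little. Npy5r went from 2.53 to -0.50, a change of -3.03. The same value, -3.03, separates the diet difference of Npy5r in the congenic strain (-0.96) from that in B6 (2.07), since both are made of the same 4 arrays. All 5 rest on the hypothalamus chow pair, which went against its strain labels at Decr2 and Cyp4f14. The part of those labels in these changes was not tested.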

How the results depend on the processing

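The tissue differences of Hcrt, Npy and Gal kept their direction and call in every alternative run, at 6.71 to 7.80, 5.50 to 6.24 and 4.69 to 5.31. Probes called by tissue were 9997, 5931 as deposited, 5763 on gene means (of fewer features) and 10291 with no replicate block. That of Npy5r lost its call at 1.36 and 1.47 without the congenic chow or B6 2-choice pair.

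Diet calls over all probes were 97. They were 15430 as deposited, 7633 with median centring, 202 with quantile normalization over 8 arrays, 43 with a filter at the 60th percentile, 14 on gene means, 0 without a variance trend and 753 on the 4 hypothalamus arrays alone. The limma fit without a trend, with no call, had 3367 probes at an unadjusted p under 0.05. Centring the deposited intensities on neuropeptide or neuron markers, chosen after seeing the data and made without quantile normalization, gave 1757 and 2277. Leaving out 1 array gave 25 to 2418. Diet differences reversed for Npy (1.61 as deposited, 0.35 with median centring) and Gal (1.65 and 0.39), and for Npy5r without a B6 array (-0.91 without 2-choice, -1.02 without chow; leave-one-out range -1.02 to 2.29). Hcrt was called as deposited (2.92), with median centring (1.66) and on the 4 arrays alone (0.83); Hcrtr1 as deposited (2.95) and with median centring (1.70); Npy1r and Npy5r as deposited (2.59 and 2.28). Npy and Gal were called as deposited as well, so all 6 tested genes were. Apart from the scaling sets the cause was not tested.

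Strain calls were 0. They were 1 as deposited, 1 with median centring, 21 on the 4 arrays alone, 620 without the 2-choice pair, 86 without the chow pair and 0 to 904 leaving out 1 array. Without either chow array, or without that pair, differences reversed for Hcrt (-0.10, -0.10 and -0.09), Npy (0.02 each), Npy1r (0.07, 0.07 and 0.09) and Npy5r (-0.53, -0.53 and -0.59), by construction close to the 2-choice pair alone; leaving out 1 array gave ranges of -0.10 to 1.25, -0.92 to 0.02, -0.84 to 0.07 and -0.53 to 2.29. That of Npy1r rests on 6 of the 8 such fits, since it fell under the filter without either hypothalamus 2-choice array. Gal reversed to -0.06 with neuropeptide centring, and the cause was not tested. Receptor probes near the filter level limit what these arrays resolve.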

Other observations

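Corin, a protease known from the arcuate neurons that make NPY, was at 11.94 and 11.14 on the B6 and congenic chow arrays and at 9.91 and 8.48 on the 2-choice arrays. Both 2-choice arrays lay below both chow arrays, and the diet difference was -2.34 ± 0.63 (SE; limma adjusted p = 0.111), which did not pass the threshold.

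Galr3, a galanin receptor under the level filter in hypothalamus, was at 12.18 on the congenic chow array and between 7.94 and 8.51 on the other 3. In liver it was at 11.09 to 11.90 on all 4 arrays, and it was called lower in hypothalamus (-2.36 ± 0.70 SE; limma adjusted p = 0.0191). Crh, the stress peptide of the paraventricular nucleus, was at 8.20 on the B6 chow array and between 11.42 and 12.48 on the other 3. Corin, Galr3 and Crh were singled out after their values were seen.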
